A study of Mus musculus with 12 samples.

Results

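The markers of astrocytes and radial glia followed here are 10 of the 22609 genes counted. They were measured in ANS cells, a line of adherent neural stem cells from the normal brain of E14.5 mouse embryos, with every library marked wt, as the cells left the cell cycle and began to differentiate towards inhibitory neurons. They were taken by symbol from the per-library count files and from the FPKM table, which both hold all 10: *Aldoc*, *Slc1a2*, *Slc1a3*, *Aqp4*, *S100b*, *Fabp7*, *Glul*, *Gja1*, *Aldh1l1* and *Apoe*. RNA of 12 libraries was sequenced at 4 time points. The 3 libraries of T0 came from proliferating cells in growth medium with 1% N2, 20 ng/ml hrFGF2 and 20 ng/ml hrEGF. The 3 libraries of T1 were taken 2 days after the change to medium D1, in which hrEGF is lowered to 2 ng/ml and hrFGF to 10 ng/ml beside 0.5% N2 and 1% B27, when proliferation is stated to be much reduced. The 4 libraries of T2 were taken 2 days after the following change to medium B, which holds 0.5% N2, 1% B27, 20 ng/ml BDNF and 10 ng/ml FGF-2 and for which no EGF is listed, on laminin-coated dishes. The 2 libraries of T3, numbered 1 and 4, were taken 10 days after the change to medium B according to the labels. Cells of every group thus received FGF2, and medium, supplements, plating and time in culture changed together between the groups and cannot be told apart. The libraries are called biological replicates, and the paper calls them independent. No source says that they came from separate derivations of the cells, so p-values measure the spread between these libraries.

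Radial glia are the stem cells of the embryonic brain. They carry proteins that astrocytes later keep, such as the glutamate transporter encoded by *Slc1a3* and the fatty acid binding protein encoded by *Fabp7*, and give rise first to neurons and then to glia. Astrocytes remove glutamate from the synapse (*Slc1a2*, *Slc1a3*), turn it into glutamine (*Glul*), are joined by gap junctions of connexin 43 (*Gja1*), pass water through aquaporin 4 (*Aqp4*) and supply lipid on apolipoprotein E (*Apoe*). No marker of the 10 is exclusive to one cell type, and in bulk RNA fewer cells that express a gene cannot be told apart from less RNA per cell.

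All 10 markers were expressed throughout: the lowest value of any marker in any library was 86 counts (*Aldh1l1*), and together they took 0.457% to 0.665% of the counts on genes. The list was set beside markers of other cells that the cultures might also hold. The microglial markers (10 genes) summed to at most 0.573 CPM (counts scaled to the TMM-corrected library total) in any library, with *Tyrobp*, *C1qa*, *C1qb* and *C1qc* at 0 counts in all 12, and those of endothelial cells (6 genes), fibroblasts and meninges (6) and ependymal cells (5 of 6 in the files) to at most 3.17, 1.35 and 33.1 CPM. Genes of the oligodendrocyte lineage (12 genes) summed to 3646 to 6743 CPM and neuronal genes (12) to 903 to 2768 CPM. The 10 markers themselves summed to 4548 to 6536 CPM. *Gfap*, the intermediate filament of astrocytes, was present at 147 and 149.6 CPM in T0 replicates 1 and 2 but at 0.494 CPM, 7 counts, in T0 replicate 3. *Gjb6*, the connexin of mature astrocytes, was at 0 counts in every T0 and T1 library.

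T0 replicate 3 stood apart from the other T0 libraries. The markers against T0 are therefore given with and without it, as are the counts of gene lists where this is stated. Medians of the markers and of the lists are given with all libraries only. The mean chi-square per gene between replicates of one time point was 101 and 105 for T0 replicate 3 against replicates 1 and 2, against 3.28 between replicates 1 and 2 and 5.34 to 34.1 within T1, T2 and T3. Counts on genes ranged from 8910724 to 16631614 per library (median 12601169). In T0 replicate 3 the summed level of 40 other astrocyte genes was 4467 CPM, the lowest of the 12 libraries, and that of 15 proliferation genes was 5300.2 CPM, the highest. It also had the lowest share of unique reads on no gene (13.3%, against 17.6% or more in the others), the highest share of alignments that were not unique (39%, against at most 34.6%) and the highest FPKM sum (933121, against at most 727432). The part of these differences in its marker levels was not tested. Of the 10 markers, 9 were lower in it than the mean of T0 replicates 1 and 2: *Apoe* 23.3-fold, *Aqp4* 11.7-fold, *Slc1a2* 10.1-fold, *S100b* 3.89-fold, *Aldh1l1* 2.46-fold, *Slc1a3* 1.96-fold, *Gja1* 1.85-fold, *Glul* 1.19-fold and *Aldoc* 1.18-fold. *Fabp7* was 2.89-fold higher in it. The spread within T0 was therefore widest for *Apoe*, *Aqp4* and *Slc1a2*, while *Glul* and *Aldoc* could be compared with T0 most closely.

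**Figure D1:**
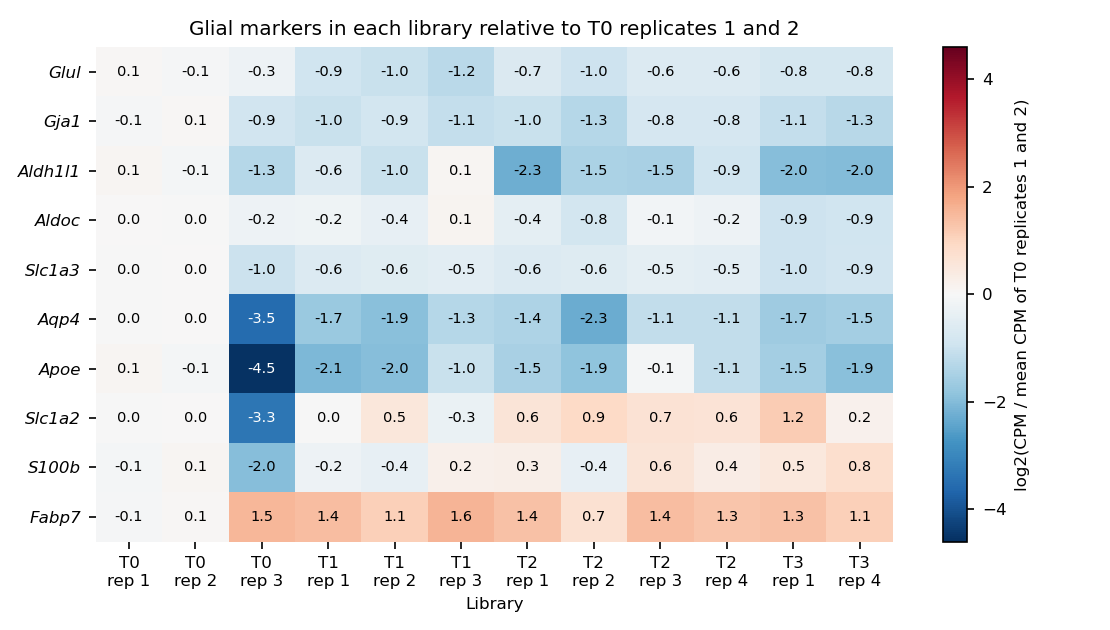
Each cell gives the log2 ratio of a marker's CPM in 1 library (x axis, 12 libraries) to the mean CPM of T0 replicates 1 and 2 (colour scale, log2 units). The column of T0 replicate 3 differs from those of T0 replicates 1 and 2 by up to 23.3-fold (*Apoe*), and *Fabp7* alone is above them in T0 replicate 3.

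Upstream sequences of 9 of the 10 markers were matched by symbol in RefSeq (GRCm38.p6), and 250 bases before each of their 12 transcript starts were searched on both strands. The core of the RBPJ site, through which Notch acts, is TGGGAA and was found in 5 of the 12 windows, of 4 markers, where 21.6% of all 32851 windows of this length hold it. A short motif of the NFI factors, known regulators of gliogenesis, is TTGGC and was found in 7 of the 12 windows, of 6 markers, against 41.5% of all windows. A STAT site (TTCNNNGAA) was found in 2 of the 12 windows, of 2 markers, against 7.02% of all windows. Windows of 3 markers are shown because *Glul* stood lower after T0 in all libraries, while *Gja1* stood lower and *Fabp7* higher than in T0 replicates 1 and 2 only. Capitals mark the matches. The *Glul* window (chr1:153899679-153899928, plus strand) holds the NFI motif at 2 places, both on the opposite strand, the *Fabp7* window (chr10:57784673-57784922, plus strand) holds the RBPJ core on the opposite strand and the NFI motif, and the *Gja1* window (chr10:56377050-56377299, plus strand) holds none of these letters. A match of this kind is a description and not a bound site.
Glul: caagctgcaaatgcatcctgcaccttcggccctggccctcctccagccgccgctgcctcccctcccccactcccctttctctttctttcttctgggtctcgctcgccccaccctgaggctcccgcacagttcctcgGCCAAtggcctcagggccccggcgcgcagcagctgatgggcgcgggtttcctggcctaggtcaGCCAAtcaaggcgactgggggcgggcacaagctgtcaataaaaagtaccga
Fabp7: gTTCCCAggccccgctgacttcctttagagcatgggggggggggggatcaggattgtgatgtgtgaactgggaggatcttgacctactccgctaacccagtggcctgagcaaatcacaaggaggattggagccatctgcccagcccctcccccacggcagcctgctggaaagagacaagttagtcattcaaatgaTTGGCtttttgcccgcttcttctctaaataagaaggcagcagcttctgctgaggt
Gja1: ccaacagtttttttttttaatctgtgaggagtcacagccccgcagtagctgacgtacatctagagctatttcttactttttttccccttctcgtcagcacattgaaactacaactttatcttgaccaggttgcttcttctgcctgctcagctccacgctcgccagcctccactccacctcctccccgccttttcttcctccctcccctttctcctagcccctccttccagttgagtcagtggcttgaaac

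Levels were compared between genes in FPKM, which accounts for transcript length. In the authors' table *Aldoc*, a glycolytic aldolase, and *Fabp7* were the most abundant of the markers at every time point. Their mean FPKM at T0 were 1705 ± 91.7 and 1542 ± 1151 (SD, n = 3), so that the order of the pair at T0 was within the spread, and among 34993 identifiers they ranked 28 and 33. *Fabp7* ranked 20 at T1, T2 and T3. *Slc1a3* (240.4 ± 72.6), *Glul* (228 ± 22.5) and *Apoe* (156 ± 130) followed at T0 and did not differ beyond their spread. *Gja1* (81.4 ± 23) stood between these and the pair *Slc1a2* (28.2 ± 19) and *S100b* (28.2 ± 15.2), whose T0 levels overlapped. *Aqp4* (10.3 ± 7.76) and *Aldh1l1* (9.57 ± 3.25) were lowest and likewise not apart. The FPKM of *Glul* and *S100b* carry a limit, because their entries in the table span 57990 and 84132 bases beyond the gene and take in other coding genes. At T3, *Gja1* had moved from place 6 to place 8 among the 10 by the mean and in both libraries, whereas *Slc1a2* was at place 5 in T3 replicate 1 and at place 7 in T3 replicate 4. The ratio of *Slc1a3* to *Slc1a2* in FPKM was 7.11, 7.3 and 24.7 in the T0 libraries and 5.19, 4.54 and 8.55 in those of T1, which overlapped. It lay between 2.84 and 4.76 in the T2 libraries and was 1.69 and 3.95 in those of T3.

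**Figure D2:**
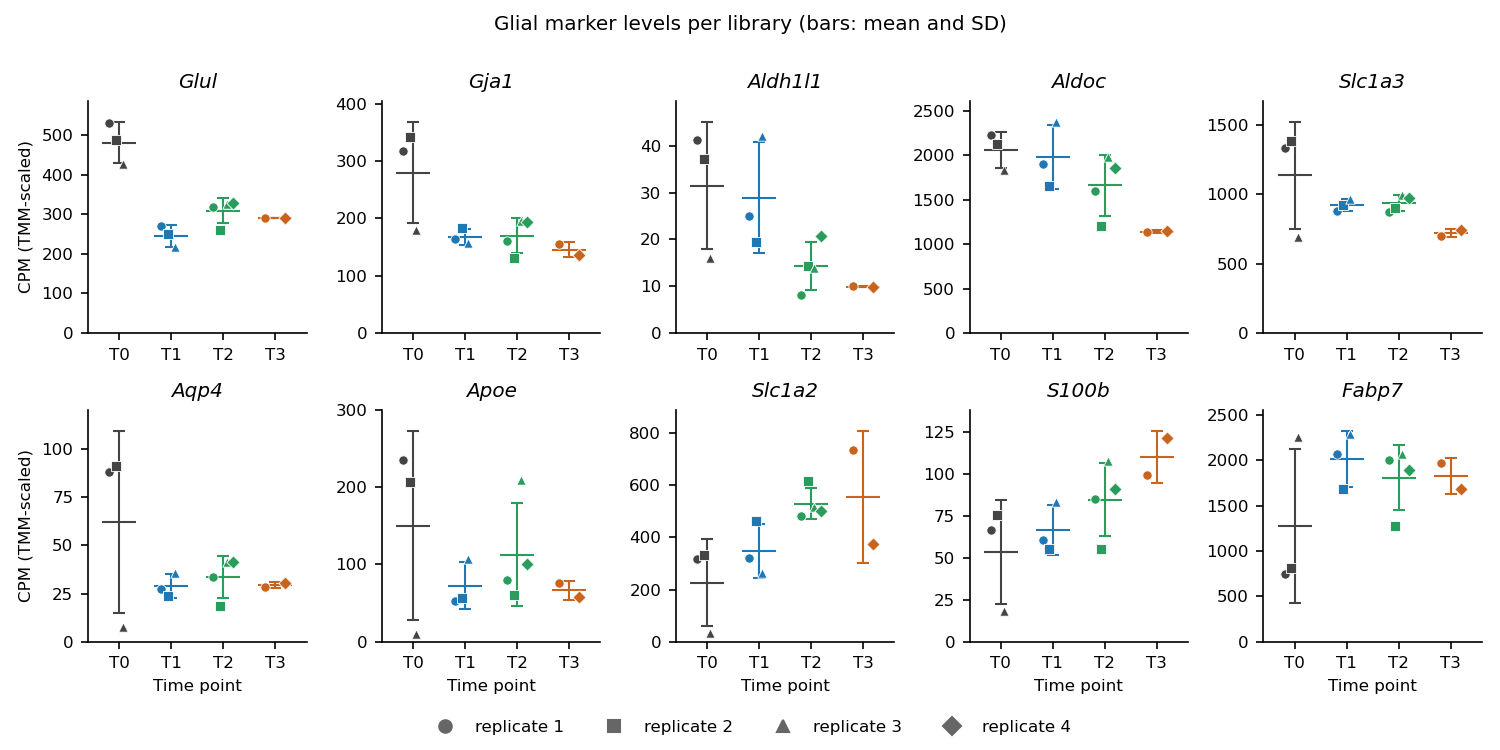
The CPM of each marker (y axis, scaled by TMM, linear from 0) is plotted for the 12 libraries at the 4 time points, with symbols for the replicate numbers and bars for the mean and SD. The 3 T0 libraries of *Glul* (427 to 529.5 CPM) lie above all later libraries (216 to 328 CPM), whereas the T0 libraries of *Fabp7*, *Aqp4*, *Apoe* and *Slc1a2* are split by replicate 3.

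The first question was which markers changed as the cells stopped dividing. With edgeR, at an adjusted p below 0.05, 1 marker was lower at T1 than at T0 (*Glul*) and 0 were higher, where 16.8% of the 12364 genes tested were called lower and 15.1% higher. All 15 proliferation genes were called lower, with a median log2 fold change of -3.59, among them *Mki67* from 679 ± 157 CPM at T0 (n = 3) to 56.6 ± 26.7 at T1 (n = 3, log2 fold change -3.59, SE 0.39, adjusted p = 0.0011). At T2, 3 markers were lower (*Glul*, *Gja1* and *Aldh1l1*) and 0 were higher, against 21.8% and 21.4% of 12607 genes. At T3, 0 markers were called in either direction, against 1.41% and 3.31% of 12721 genes, and 4 were lower and 0 higher at an unadjusted p below 0.05 (*Aldoc*, *Glul*, *Gja1*, *Aldh1l1*). DESeq2 and a fit of all 12 libraries called those 4 lower at T3, where they called 5.44% and 14.4% of all genes lower. The markers' median log2 fold changes were -0.21, -0.35 and -0.77 at T1, T2 and T3, beside -0.0082, 0.0023 and -0.015 over all genes tested. The 3 comparisons share the T0 libraries. With all libraries the shares of markers called stood close to these backgrounds and are no result about the markers as a list.

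Without T0 replicate 3, 5 markers were lower at T1 (*Slc1a3*, *Aqp4*, *Glul*, *Gja1*, *Apoe*) and 1 was higher (*Fabp7*), where 24.9% and 25.2% of all genes were called. At T2, 5 were lower (*Slc1a3*, *Aqp4*, *Glul*, *Gja1*, *Aldh1l1*) and 2 were higher (*Slc1a2*, *Fabp7*), against 25.3% and 26.7%. At T3, 7 were lower (*Aldoc*, *Slc1a3*, *Aqp4*, *Glul*, *Gja1*, *Aldh1l1*, *Apoe*) and 2 were higher (*S100b*, *Fabp7*), against 8.49% and 9.94%. The 2 T0 libraries left were the closest pair of the series by chi-square, and the calls rest on them. The paper calls its replicas independent, but no source describes the culture behind each library. If these 2 libraries shared a culture, T0 would hold 1 sample in these fits.

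**Figure D3:**
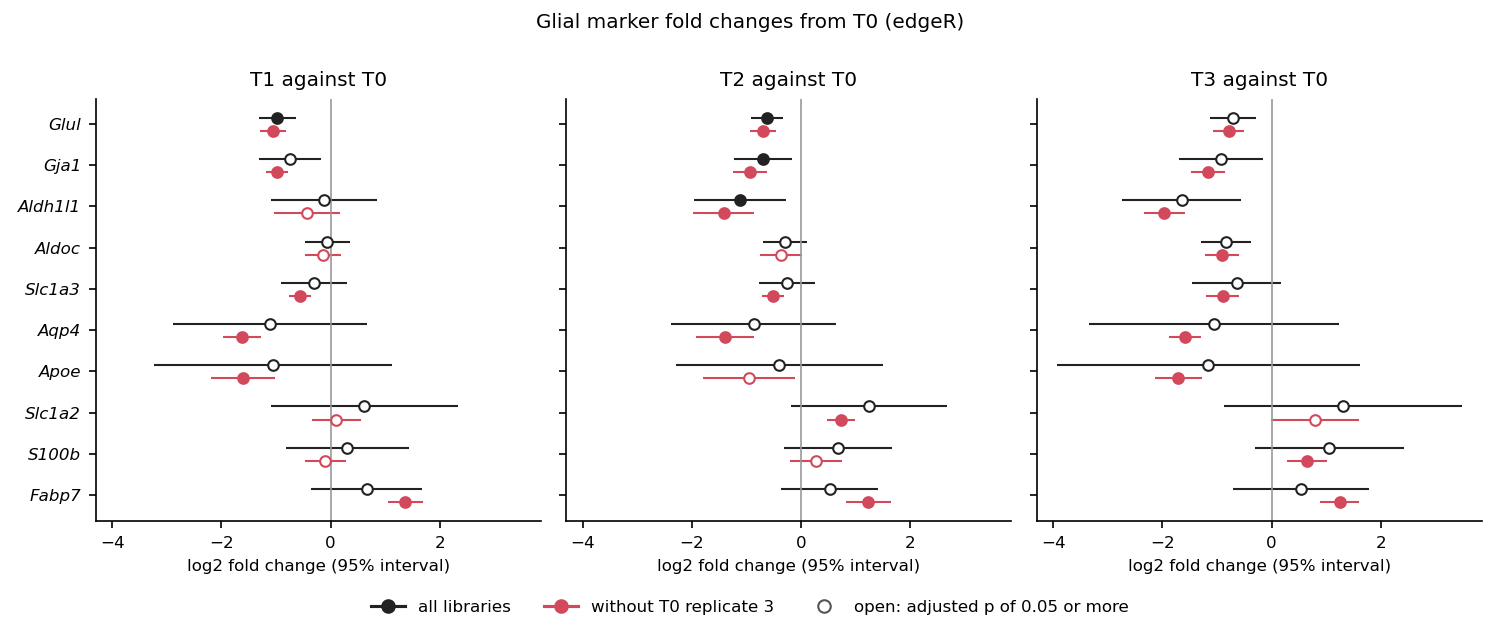
Log2 fold changes of the 10 markers from T0 (x axis) are drawn with their 95% intervals for T1, T2 and T3, from all libraries (black) and without T0 replicate 3 (red), with filled points for an adjusted p below 0.05. *Glul* is filled at T1 and T2 in both, and *Fabp7* (1.37, 1.23 and 1.24) is filled only without T0 replicate 3.

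*Glul* encodes glutamine synthetase, the enzyme that joins ammonia to glutamate, and lies at chr1:155747074-155756853 on the plus strand (mm9). It stood at 529.5, 486 and 427 CPM in the T0 libraries, at 271, 249 and 216 at T1, at 319, 261, 324 and 328 at T2, and at 291 and 290.2 at T3. All T0 libraries, replicate 3 included, were above all later ones. The mean was 481 ± 51.7 CPM at T0 (n = 3) and 245 ± 27.7 at T1 (n = 3), 1.97-fold lower with a log2 fold change of -0.98 (95% interval -1.31 to -0.64, SE 0.14, edgeR adjusted p = 0.0032). At T2 (308 ± 31.6, n = 4) it was 1.54-fold lower than at T0 (log2 fold change -0.63, interval -0.91 to -0.34, adjusted p = 0.0049). It was called lower at both time points under each of the 16 alternatives run at T1 and the 17 at T2, with log2 fold changes from -1.07 to -0.89 and from -0.90 to -0.55. From T1 to T2 it stood 1.27-fold higher, which did not pass the threshold (log2 fold change 0.34, unadjusted p = 0.011, edgeR adjusted p = 0.24). With the replicate number as a block, that value was 0.31 with an adjusted p of 0.15. At T3 the log2 fold change from T0 was -0.71 (interval -1.13 to -0.29, adjusted p = 0.072).

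*Gja1*, connexin 43, lies at chr10:56097106-56110225 on the plus strand. It was measured at 318, 342 and 179 CPM at T0, at 164, 183 and 156 at T1, at 161, 132, 195 and 193 at T2, and at 155 and 136 at T3. T0 replicates 1 and 2 were above every later library, and T0 replicate 3 lay within the later range. The fall passed the test at T2 (280 ± 88.2 CPM at T0, n = 3, to 170 ± 30.1, n = 4, log2 fold change -0.70, interval -1.23 to -0.17, edgeR adjusted p = 0.038). This call held in 10 of 17 alternatives and was lost without T0 replicate 1 or 2 or any 1 of the T2 libraries, with edgeR adjusted p from 0.058 to 0.12, and with the replicate block (adjusted p = 0.14). At T1 the log2 fold change was -0.74 with an adjusted p of 0.053, and DESeq2 and the fit of all 12 libraries called it lower. Without T0 replicate 3 it was lower by 0.98, 0.94 and 1.17 on the log2 scale at T1, T2 and T3. From T1 to T2 the log2 difference of *Gja1* was 0.030 with an interval of -0.27 to 0.33. *Gjb6*, the partner connexin of mature astrocytes, reached at most 0.184 CPM in any library.

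*Aldh1l1* encodes the folate enzyme formyltetrahydrofolate dehydrogenase, a pan-astrocyte marker in the mature brain, and lies at chr6:90436421-90550197 on the plus strand. Its levels were 41.3, 37.2 and 15.9 CPM at T0, 25.1, 19.4 and 42.1 at T1, 8.22, 14.3, 13.8 and 20.8 at T2, and 10.1 and 9.79 at T3. The T0 and T1 libraries overlapped, and both T3 libraries lay below every T0 and T1 library. At T2 it was 2.16-fold lower than at T0 (log2 fold change -1.11, SE 0.37, edgeR adjusted p = 0.038). This call held in 10 of 17 alternatives and was lost without T0 replicate 1 or 2 or T2 replicate 1, 2 or 3, with edgeR adjusted p from 0.079 to 0.11, with the replicate block (adjusted p = 0.087) and with limma on FPKM without a filter (adjusted p = 0.051). The log2 fold change without T0 replicate 3 was -1.42 with an adjusted p of 0.0011. From T1 to T2 the log2 fold change was -0.99 with an adjusted p of 0.21. With the replicate number as a block it was -1.20 with an adjusted p of 0.047. Libraries of T1 and T2 with the same number deviated together over all genes but not for *Aldh1l1*, since replicate 2 was the lowest of T1 and above replicates 1 and 3 at T2. At T3 it was 3.14-fold lower than at T0 (log2 fold change -1.65, adjusted p = 0.088), and without T0 replicate 3 this was -1.96 with an adjusted p of 0.0069.

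*Aldoc*, aldolase C, the brain form of the glycolytic enzyme, lies at chr11:78136470-78141283 on the plus strand. Its counts were among the highest of the markers, from 10690 to 38930 per library. It was at 2223, 2128 and 1836 CPM at T0, at 1907, 1659 and 2374 at T1, at 1598, 1207, 1985 and 1855 at T2, and at 1133 and 1151 at T3. The 2 T3 libraries were below the other 10. At T1 the log2 fold change was -0.063 with an interval of -0.48 to 0.35, the narrowest of the markers after that of *Glul*. At T3 it was -0.84 (interval -1.29 to -0.39, edgeR adjusted p = 0.061), and DESeq2, the fit of all 12 libraries and the fit with no filter on low counts called it lower, as did the fit without T0 replicate 3 (log2 fold change -0.91, adjusted p = 0.016). *Aldoa*, the widely expressed aldolase, was lower at each time point, at 623 ± 38.4 CPM at T0 (n = 3), 218 ± 51.5 at T1 (n = 3), 219.6 ± 19.3 at T2 (n = 4) and 266 ± 49.6 at T3 (n = 2), with edgeR adjusted p of 0.0017, 7.5e-05 and 0.033.

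*Slc1a2* (GLT-1) and *Slc1a3* (GLAST) encode the glial glutamate transporters. In the brain the former is the main transporter of mature astrocytes and the latter that of radial glia. *Slc1a2*, at chr2:102498816-102630941 on the plus strand, was at 317, 331 and 32.1 CPM at T0, 321, 462 and 262 at T1, 483, 617, 518 and 501 at T2, and 736 and 376 at T3. All 4 T2 libraries were above all T0 and T1 libraries in CPM. In FPKM the groups overlapped, with 36.8, 59.2, 40.9 and 40.4 at T2, 39.6 and 38.8 in T0 replicates 1 and 2 and 42.1 in T1 replicate 2. Against T0 the log2 fold change at T2 was 1.24 (interval -0.18 to 2.67, edgeR adjusted p = 0.14), and without T0 replicate 3 it was 0.73 (interval 0.48 to 0.98, adjusted p = 0.00048). From T1 to T2 *Slc1a2* was 1.53-fold higher (log2 fold change 0.61, interval 0.22 to 1.01), with an adjusted p of 0.19 without the block and 0.032 with it. Without T1 replicate 2, the highest of T1, the log2 fold change was 0.87 with an adjusted p of 0.025. At T3 its 2 libraries differed 1.96-fold from each other, the widest gap of the 10 markers.

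*Slc1a3*, at chr15:8584124-8660764 on the minus strand, had 1332, 1383 and 693 CPM at T0, 883, 921 and 965 at T1, 874, 902, 992 and 975 at T2, and 698 and 742 at T3. The T1 and T2 libraries overlapped, with a log2 difference of 0.029 (interval -0.16 to 0.22). T0 replicates 1 and 2 were above all later libraries, while T0 replicate 3 was the lowest of the 12. Against T0 it was not called in any comparison with all libraries (log2 fold changes -0.30, -0.26 and -0.64, edgeR adjusted p of 0.39, 0.36 and 0.28). Without T0 replicate 3 the log2 fold changes were -0.56, -0.52 and -0.90, with adjusted p of 0.00095, 0.0011 and 0.015. From T2 to T3 it was 1.30-fold lower (log2 fold change -0.38, interval -0.64 to -0.12), which did not pass the threshold in edgeR (unadjusted p = 0.0093, adjusted p = 0.14) and did in DESeq2 (adjusted p = 0.014).

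*Fabp7*, also known as BLBP, is a lipid chaperone of radial glia and a known Notch target, and lies at chr10:57504687-57508256 on the plus strand. It was at 751 and 811 CPM in T0 replicates 1 and 2 and at 2257 CPM in T0 replicate 3. Later libraries held 2073, 1681 and 2294 CPM at T1, 1999.6, 1280.0 and 2068 with 1891 at T2, and 1966 and 1688 at T3. T0 replicates 1 and 2 were thus the lowest of the 12 libraries and T0 replicate 3 the second highest. With all libraries the log2 fold changes were 0.66, 0.52 and 0.54 at T1, T2 and T3 (edgeR adjusted p of 0.27, 0.30 and 0.54). Without T0 replicate 3 they were 1.37, 1.23 and 1.24 (adjusted p of 8.3e-05, 0.00043 and 0.013). Between T2 and T3 the log2 difference was 0.0095 with an interval of -0.44 to 0.46. The ratio of *Fabp7* to *Aldoc* in FPKM was 0.473 and 0.534 in T0 replicates 1 and 2, 1.77 in T0 replicate 3, and 1.36 to 2.45 in the later libraries.

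*S100b*, a calcium-binding protein, lies at chr10:75716598-75723904 on the plus strand. It was at 66.5, 75.5 and 18.3 CPM at T0, 60.4, 55.1 and 83.1 at T1, 84.9, 55.2, 107 and 90.8 at T2, and 99.2 and 121 at T3. Both T3 libraries were above all T0 and T1 libraries. The log2 fold change at T3 was 1.06 (interval -0.31 to 2.43, edgeR adjusted p = 0.29) and, without T0 replicate 3, 0.65 (interval 0.28 to 1.02, adjusted p = 0.042).

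*Aqp4*, the water channel of astrocyte end-feet, and *Apoe* were split furthest within T0. *Aqp4*, at chr18:15547903-15562193 on the minus strand, was at 88, 91.4 and 7.69 CPM at T0, at 27.5, 23.5 and 35.9 at T1, at 33.4, 18.3, 41.2 and 41.3 at T2, and at 28.6 and 30.7 at T3. The highest and the lowest of its 12 libraries were both at T0. *Apoe*, at chr7:20281458-20284515 on the minus strand, was at 235, 206 and 9.45 CPM at T0, 53, 56.3 and 107 at T1, 79.2, 60.8, 209 and 101 at T2, and 75.4 and 57.9 at T3. Its T2 replicate 3 reached the level of T0 replicates 1 and 2. With all libraries the intervals of *Apoe* at T1 ran from -3.24 to 1.13 and those of *Aqp4* from -2.89 to 0.67 on the log2 scale, and neither passed the test at any time point. Without T0 replicate 3, *Aqp4* was lower by 1.63, 1.39 and 1.58 on the log2 scale (edgeR adjusted p of 4.7e-05, 0.00096 and 0.0069), and *Apoe* by 1.60 and 1.71 at T1 and T3 (adjusted p of 0.001 and 0.010). At T2 *Apoe* then had a log2 fold change of -0.95 with an adjusted p of 0.058.

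The second question was whether the markers moved as the cells went from reduced proliferation to the onset of differentiation and on to overt differentiation. All 15 proliferation genes were fitted higher at T3 than at T2, as given below. From T1 to T2, 0 markers were called lower and 0 higher, against 0.0565% and 0.573% of 12382 genes. At an unadjusted p below 0.05, 1 was lower (*Aldh1l1*) and 2 were higher (*Slc1a2*, *Glul*), and DESeq2 called *Aldh1l1* lower and *Slc1a2* higher, against 0.401% and 1.32% of all genes. With the replicate block 1 was lower (*Aldh1l1*) and 1 higher (*Slc1a2*), against 0.476% and 1.51% of all genes. From T2 to T3, 0 were called, against 0.691% lower and 0.5% higher of 12599 genes. At an unadjusted p below 0.05, 2 were lower (*Aldoc* and *Slc1a3*) and 0 higher, and DESeq2 called *Slc1a3* lower, against 1.84% of all genes. *Gfap* was the 1 gene among the other astrocyte genes that passed the test between T2 and T3, falling from 125 ± 53.5 CPM (n = 4) to 28.7 ± 6.79 (n = 2, log2 fold change -2.12, SE 0.38, edgeR adjusted p = 0.049). This call was lost without any 1 of the T2 libraries (adjusted p of 0.10, 0.055, 0.073 and 0.15 without replicates 1 to 4) and without T3 replicate 4 (0.12). It was also lost with at least 10 counts in every library (0.051), in the fit of all 12 libraries (0.51) and in FPKM (0.17 to 0.26). The call held with DESeq2 (adjusted p = 2.7e-08) and in edgeR with its size factors (0.049), with no filter (0.00059) and with the replicate block (0.011). The log2 fold change lay between -2.38 and -1.73 in every setting. Against T0 *Gfap* was called at no time point, with log2 fold changes of -0.95, 0.35 and -1.77. When T0 replicate 3 was left out they were -1.52, -0.23 and -2.35, with edgeR adjusted p of 0.00033, 0.54 and 0.0070.

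Of 40 other astrocyte genes, 36 passed the filter at T1 and at T2. With all libraries, 14 were higher and 3 lower at T1 (median log2 fold change 0.89), against 15.1% and 16.8% of all genes. At T2, 16 were higher and 4 lower (median 0.97), against 21.4% and 21.8% of all genes. Among those higher was *Mt3*, a brain metallothionein, from 3.84 ± 0.153 CPM at T0 (n = 3) to 18.3 ± 4.9 at T1 (n = 3, edgeR adjusted p = 0.0012) and 20.9 ± 10.1 at T2 (n = 4, adjusted p = 0.0014). *Scg3*, a granule protein, was 4.75-fold higher at T1 by the fitted log2 fold change of 2.25, and *Clu*, the lipid-binding chaperone clusterin, rose from 0.385 ± 0.126 CPM at T0 (n = 3) to 4.98 ± 0.924 at T2 (n = 4) and 5.49 ± 1.83 at T3 (n = 2). *Plcd4*, a phospholipase C, was higher at T3 (log2 fold change 1.17, adjusted p = 0.042). Those lower at T2 were *Kcnj10* (the Kir4.1 channel), *Acsbg1* (an acyl-CoA synthetase), *Fgfr3* (an FGF receptor of glial progenitors) and *Slc25a18* (a mitochondrial glutamate carrier). *Slc25a18* was at 267 ± 47.6 CPM at T0 (n = 3) and 131 ± 22.7 at T2 (n = 4, log2 fold change -1.01, adjusted p = 0.0023), and was also lower at T3 (log2 fold change -1.26, adjusted p = 0.045). *Acsbg1* fell by 1.21 on the log2 scale at T1 (adjusted p = 0.0029). *Fgfr3* fell from 568 ± 296 CPM to 180.4 ± 23.6 at T2 (log2 fold change -1.64, adjusted p = 0.0068). At T3, 2 of 35 were higher and 1 was lower, against 3.31% and 1.41% of all genes. The counts without T0 replicate 3 were 19 higher and 8 lower of 37 at T1, 19 and 6 of 36 at T2, and 8 and 7 of 35 at T3. The shares over all genes were then 25.2% and 24.9%, 26.7% and 25.3%, and 9.94% and 8.49%.

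Of 30 other radial glia genes, 29 were in the files and 26 were tested. At T1, 6 were higher and 6 lower (median log2 fold change 0.12), against 15.1% and 16.8% of all genes. At T2, 6 were higher and 7 lower (median 0.0013), against 21.4% and 21.8% of all genes. *Tnc*, the matrix protein tenascin C, was at 579.7 ± 64.9 CPM at T0 (n = 3) and 111 ± 21.3 at T2 (n = 4, log2 fold change -2.37, SE 0.17, edgeR adjusted p = 7e-05). *Cd44*, a hyaluronan receptor, fell from 133 ± 2.86 CPM to 29.1 ± 3.43 at T1 (n = 3 each, log2 fold change -2.20, adjusted p = 0.00037). *Pdpn*, podoplanin, rose from 1.55 ± 0.327 CPM at T0 to 9.86 ± 1.78 at T2 (log2 fold change 2.67, adjusted p = 0.00014), and *Sox9*, a transcription factor of glial fate, from 174 ± 82.4 to 363 ± 38 (log2 fold change 1.08, adjusted p = 0.027). At T3, *Tnc* and *Fgfr1* were lower and *Pdpn* higher, against 1.41% lower and 3.31% higher of all genes. The counts without T0 replicate 3 were 8 higher and 8 lower of 26 at T1, 7 and 7 of 27 at T2, and 1 and 9 of 26 at T3. The shares over all genes were then 25.2% and 24.9%, 26.7% and 25.3%, and 9.94% and 8.49%. *Sox9* stood at 217, 225 and 78.8 CPM in the T0 libraries, and its log2 fold change at T2 was 0.73 without T0 replicate 3 (adjusted p = 0.00038).

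Genes that work with the markers were called in both directions. Over all genes tested, 21.8% were called lower and 21.4% higher at T2, 16.8% and 15.1% at T1, and 1.41% and 3.31% at T3. The lists were not tested as sets. Of the 12 tested for glutamate and glutamine handling at T2, 3 were lower, among them *Gls2*, a glutaminase, and *Slc38a2*, a glutamine transporter (646 ± 89.7 CPM at T0 to 324 ± 18.8, log2 fold change -0.98, edgeR adjusted p = 0.00052), and 1 was higher (*Slc1a4*). At T1, 2 of 13 were lower (these same 2 genes) and 1 was higher (*Pcx*, pyruvate carboxylase), and at T3 0 of 12 passed with all libraries. Of 12 partners in gap junctions and water channels, 1 was lower at T2 (*Aqp1*) and 5 were higher, among them *Gjd2*, the neuronal connexin 36 (1.11 ± 0.962 CPM to 24.5 ± 8.66, log2 fold change 4.48, adjusted p = 0.0016), and *Dtna*, dystrobrevin. At T1, 0 of 11 were lower and 3 higher. Of 13 genes of lipid transport at T2, 3 were lower, among them *Scarb1*, and 5 were higher, among them *Lrp1* and *Apoc1*, while at T1 4 of 12 were lower and 1 was higher (*Lrp8*). *Lpl*, lipoprotein lipase, was at 48 ± 21.5 CPM at T0 and 7.96 ± 1.24 at T1 (log2 fold change -2.59, adjusted p = 0.0021). Of 11 close relatives of the markers at T2, 6 were lower, among them *Aldoa* and *Gjc1*, and 4 higher, among them the neuronal transporter *Slc1a6* (0.62 ± 0.136 to 3.78 ± 0.809 CPM, adjusted p = 0.00039) and *Apoc1*. At T1 3 of 10 were lower, *Fabp5* among them, and 2 higher, *S100a16* among them. At T2 the counts without T0 replicate 3 were 5 lower and 2 higher of 13 for glutamate and glutamine handling, 2 and 7 of 12 for gap junctions and water channels, 3 and 5 of 13 for lipid transport, and 6 and 4 of 11 for the close relatives. At T1 they were 6 and 2 of 13, 1 and 6 of 12, 4 and 4 of 12, and 6 and 4 of 11. Without T0 replicate 3 the shares over all genes were 25.3% lower and 26.7% higher at T2, and 24.9% and 25.2% at T1. At T3 they were 8.49% and 9.94%. Of glutamate and glutamine handling, *Glud1* and *Slc38a2* were then lower at T3 (edgeR adjusted p of 0.020 and 0.032) and *Asns* higher (0.019). Each gene named as called against T0 with all libraries, in these lists and in those of astrocytes and radial glia, was also called without T0 replicate 3, in the same direction.

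**Figure D4:**
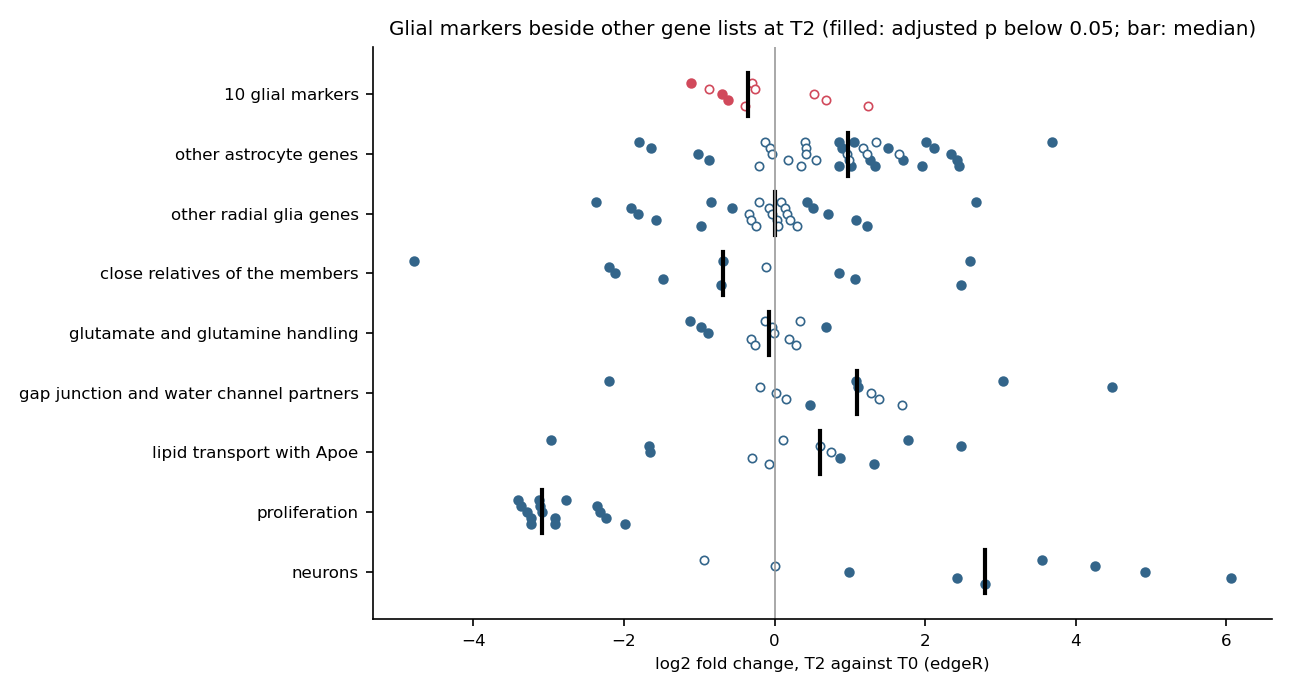
Log2 fold changes from T0 to T2 (x axis) are drawn for each gene tested in 9 lists, with filled points for an edgeR adjusted p below 0.05 and a bar at the list median. The median of the 10 markers (-0.35) lies left of that of the other astrocyte genes (0.97), and all 15 proliferation genes lie left of 0. The lipid transport gene *Abcg1*, at 0 counts in all T0 libraries, is counted in the median and not drawn.

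These values stood beside shifts in other cell type markers. Summed levels of 12 neuronal genes were 903 to 974 CPM at T0, 2072 to 2625 at T1, 2051 to 2611 at T2 and 1712 to 2768 at T3, with *Nefm* at 0 counts in all libraries. Of the 7 neuronal genes tested at T1, 5 were higher and 1 lower (*Elavl4*, an RNA-binding protein of neurons, at 5.01 ± 2.67 CPM at T0 and 1.89 ± 0.391 at T1, n = 3 each, edgeR adjusted p = 0.043). At T2, 7 of 9 were higher and 0 lower, and at T3, 3 of 10 and 0. These were, without T0 replicate 3, 6 higher and 1 lower of 7, 7 and 0 of 8, and 6 and 0 of 10. Over all genes tested, 15.1%, 21.4% and 3.31% were called higher at T1, T2 and T3, and 16.8%, 21.8% and 1.41% lower. Without T0 replicate 3 these shares were 25.2%, 26.7% and 9.94% higher, and 24.9%, 25.3% and 8.49% lower. *Gad1*, the GABA-synthesising enzyme, was at 2.68 ± 1.43 CPM at T0 (n = 3) and 50.3 ± 5.57 at T2 (n = 4, log2 fold change 4.25, edgeR adjusted p = 8.9e-05), *Dcx*, doublecortin, at 5.57 ± 3.37 and 368 ± 52.2 CPM (adjusted p = 8.2e-05), and *Tubb3*, a neuronal tubulin, at 25.6 ± 12.9 and 135 ± 24.7 CPM (adjusted p = 0.0014). Summed levels of 12 genes of the oligodendrocyte lineage were 3646 to 3819 CPM at T0 and 6558 to 6743 CPM at T3, and 4 of 9 tested were higher at T2, among them *Pdgfra*, the PDGF receptor of oligodendrocyte progenitors (3.67 to 30.1 CPM at T0 and 144 to 188 at T2, adjusted p = 0.0039), and *Gpr17* (103, 103 and 0.917 CPM in the T0 libraries and 422 to 758 CPM at T2, adjusted p = 0.045). At T2, 0 of these 9 were lower. With all libraries, 1 of 8 was higher at T1 (*Pdgfra*) and 0 lower, and at T3 0 of 9 passed in either direction. Without T0 replicate 3, *Pdgfra*, *Gpr17*, *Olig1*, *Olig2* and *Cnp* were higher at T1 (edgeR adjusted p from 0.00024 to 0.049). At T3, *Pdgfra*, *Cspg4*, *Olig1* and *Olig2* were then higher (edgeR adjusted p from 0.033 to 0.048). When T0 replicate 3 was left out, 6 of 10 were higher and 1 lower at T2, with *Gpr17* at a log2 fold change of 2.45 in place of 3.03. The 1 lower was *Sox10* (log2 fold change -2.68, edgeR adjusted p = 0.00028), not tested with all libraries at T1 and T2. Without T0 replicate 3 it was also lower at T1 and T3 (-2.93 and -3.62, edgeR adjusted p of 0.00034 and 0.018). Proliferation genes summed to 2737 to 5300.2 CPM at T0, 288 to 490.0 at T1, 362 to 619 at T2 and 971 to 1875 at T3, and *Mki67* was at 197 and 312 CPM in the T3 libraries. From T2 to T3 all 15 were fitted higher (median log2 fold change 1.54), and 2 were called (*Rrm2*, *Ccnd1*), against 0.5% of all genes. Against T0, 1 of 15 was called lower at T3 (*Top2a*), and without T0 replicate 3 *Mki67*, *Top2a* and *Pcna* were. The part of these changes in the marker levels was not tested.

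For each marker the genes with the most similar profile were found by Pearson's r of log2 CPM over the 12 libraries, among 10043 genes. The libraries of a time point share their conditions, and T0 replicate 3 is among the points. The nearest genes were not sought without this library. Leaving it out moved r between *Slc1a2* and *S100b* from 0.82 to 0.13, while *Slc1a3* and *Aqp4* had 0.83 with it and 0.82 without. Closest to *Slc1a2* were *Vamp1* (0.98), a synaptic vesicle protein, *Ypel2* (0.98) and *Masp1* (0.97). Closest to *S100b* were *Aldh1a1* (0.97), which makes retinoic acid, *Lgmn* (0.93) and *Scn3b* (0.93). *Gja1* ran with *Acss1* (0.95), *Fgfr3* (0.93) and *Fbxo6* (0.91), and *Aqp4* with *Selenbp1* (0.96), *Neat1* (0.95), a nuclear noncoding RNA, and *Tef* (0.93). *Aldoc* ran with *Kcne1l* (0.98), *Morn2* (0.94) and *Dync2li1* (0.93), and *Slc1a3* with *Cyp2j13* (0.97), *Pold4* (0.97) and *2810459M11Rik* (0.97). *Fabp7* was nearest *Pqbp1* (0.95), *Med7* (0.94) and *Cnn3* (0.93), *Glul* nearest *Adam15* (0.94), *Fkbp14* (0.93) and *2810055F11Rik* (0.93), *Aldh1l1* nearest *Naglu* (0.96), *Phf7* (0.90) and *Pdzrn3* (0.90), and *Apoe* nearest *Amph* (0.95), *Phyhd1* (0.95) and *6330403K07Rik* (0.95). No marker was among the 3 nearest genes of another marker, but *Apoe* correlated with *Aqp4* at 0.93, as *Tef* did. Between markers r ran from -0.77 (*Slc1a3* and *Fabp7*) to this value. Without T0 replicate 3 it ran from -0.81 (*Fabp7* and *Glul*) to 0.92 (*Aqp4* and *Gja1*).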

How the data were processed

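The labels assign 12 libraries to T0 (n = 3), T1 (n = 3), T2 (n = 4) and T3 (n = 2, replicates 1 and 4). The labels place T3 10 days past the switch to medium B, whereas the paper's text adds this time to T2, and the general protocol gives 3 days in each medium. For T2 the text gives fewer replicates than the labels, and all 4 were used. The authors made libraries with the TruSeq RNA Sample Prep kit v2, sequenced them on a HiScanSQ and aligned the reads to mm9. Per the labels (the submitters' processing notes) the tools named are CASAVA 1.8, TopHat2 2.0.6, Bowtie 0.12.7.0, HTSeq 0.6.0 and DESeq2 1.0.0. The strand setting of the counting is not given in the sources used here, so reads of a gene and of an overlapping antisense gene cannot be told apart. The authors deposited raw counts for 22609 genes, with 5 further entries of reads assigned to no gene. These entries, with reads on no gene at 13.3% to 24.1% of the unique reads, were left out. Alignments that were not unique made up 26% to 39% of all entries, so genes with close copies are undercounted to an unknown degree. The authors also deposited FPKM per gene and library over 34993 identifiers, and the tool behind them is not given in the sources used here. A total of 21617 names are in both tables, and 0 columns belonged to other samples.

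The counts were scaled by TMM, genes with low counts were dropped by filterByExpr, and the 2 groups of each comparison were fitted alone with edgeR 4.0.16 (quasi-likelihood test, R 4.3.3), with Benjamini-Hochberg adjustment over all genes tested and a threshold of 0.05. Intervals are at 95%, and SE were obtained from the log2 fold change and its F statistic. All p-values are two-sided. All 10 markers passed the filter in every comparison. The alternatives were DESeq2 1.42.0 and its size factors, no filter, at least 10 counts in every library, a fit of all 12 libraries, limma 3.58.1 on log2(FPKM + 1) of genes with a mean FPKM of at least 1 (also with a pseudocount of 0.1, or without the filter), each library left out, the replicate number as a block, and the libraries numbered 1 and 2 only. The scripts were tested on simulated counts.

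The labels do not say whether a replicate number marks a shared batch. Deviations from the group means, over 12201 genes, correlated between the T2 and T1 libraries of the same number at 0.25, 0.40 and 0.18, so these were taken as paired and values with the block are given for T2 against T1. For the T1 and T0 libraries the correlations were -0.016, 0.13 and 0.073, for T2 and T0 -0.084, 0.0045 and -0.17, for the 2 pairs of T3 and T2 -0.050 and 0.27, and for the 1 pair of T3 and T0 0.45. The 2 T3 libraries deviate from their mean by equal and opposite amounts. The FPKM column of T3 replicate 4 carries the numbers 2 and 4, and the labelled 4 was used. Taken as 2, it correlated at -0.45 with T0 replicate 2 and -0.12 with T2 replicate 2.

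The markers and the other gene lists were chosen with earlier results of these data known. Every marker is named. In the other lists and each comparison with T0, the 2 genes with the largest fall and the 2 with the largest rise were named among those past the threshold with groups that do not overlap and mean log2 CPM no lower than 1, with *Gfap*, *Mki67*, *Tubb3* and *Gad1* always named. Names beyond this rule, given to complete a count or a family, were chosen after their values were seen. The 3 genes most like each marker were taken among those whose mean log2 CPM reached 3 (prior count 2).

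Positions are those of the GENCODE vM1 annotation of NCBIM37, the assembly called mm9. Upstream sequences are from RefSeq on GRCm38.p6, a different build, and no coordinate was converted. Intervals and tests cover the spread between libraries.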

Additional observations from a re-analysis of the deposited data

Results flagged for a closer look

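The highest and lowest of the 4 T2 libraries were compared with the others for 51 genes (Dixon's test, which flags about 1 group in 20 by chance). *Glul* at T2 was at 261 CPM in replicate 2, against 319 to 328 CPM in the other libraries, with a gap of 0.870 of the range. *Tubb3* at T2 was at 172 CPM in replicate 3, against 120.2 to 126 CPM in the others, with a gap of 0.896 of the range. T2 replicate 2 was also the lowest T2 library for *Aldoc*, *Fabp7*, *Gja1*, *Aqp4*, *S100b* and *Apoe* and the highest for *Slc1a2*.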

How the results depend on the processing

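*Glul* was called lower at T1 and T2 under every alternative run. With DESeq2, 2 markers were called lower at T1 and 4 at T3, where 14.9% and 5.44% of all genes were, and with the fit of all 12 libraries also 2 and 4, against 21.2% and 14.4%. DESeq2 called 1 lower and 1 higher from T1 to T2 (0.401% and 1.32% of all genes) and 1 lower from T2 to T3 (1.84%), and with no filter 2 were lower at T3 (2.62%). With the libraries numbered 1 and 2 only, 8 were lower and 1 higher at T1, against 29.9% and 29.9% of all genes, and 7 lower and 2 higher at T2, against 27.4% and 27.5%. With a library left out, 1 to 5 markers were lower and 0 to 1 higher at T1, 1 to 5 and 0 to 2 at T2, 0 to 7 and 0 to 2 at T3, 0 and 0 to 1 from T1 to T2, and 0 and 0 from T2 to T3. The upper ends for T0 came without T0 replicate 3. At T2, leaving out T0 replicate 1 or 2 or T2 replicate 1, 2 or 3 left 1 marker called (*Glul*), and leaving out T2 replicate 4 left 2. *Slc1a2* passed from T1 to T2 without T1 replicate 2. The cause of these changes was not tested.

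With the replicate block, 1 marker was lower at T1 and 1 at T2, 1 was lower and 1 higher from T1 to T2, and 0 passed from T2 to T3. *Gja1* from T1 to T2 turned to -0.046 and *Fabp7* from T2 to T3 to -0.10. Beyond *Gja1* and *Aldh1l1*, which lost the call at T2, and the 2 calls from T1 to T2, the block changed no marker's call. T3 and T0 share 1 number, so no block could be fitted with the labelled numbers. The FPKM column of T3 replicate 4 carries the numbers 2 and 4. In a block with this library as number 2, chosen after seeing the data, 7 markers were lower and 3 higher at T3 than at T0 (11.3% and 11.7% of all genes), where T0 replicate 3 has no partner and adds nothing to the difference. From T2 to T3, 0 were called, and *Slc1a2*, *Aqp4* and *Glul* turned to -0.060, 0.24 and 0.0046.

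Directions turned only for values that were not called with all libraries. In FPKM with pseudocounts of 1 and 0.1, log2 fold changes were 0.081 and 0.091 for *Aldh1l1* at T1, 0.35 and 0.73 for *Gfap* at T1, 0.22 and 0.25 for *Apoe* at T2, -0.14 and -0.14 for *Slc1a3* and -0.15 and -0.15 for *Gja1* from T1 to T2, and -0.061 and -0.061 for *Fabp7* from T2 to T3, and without the FPKM filter 0.081, 0.35, 0.22, -0.14, -0.15 and -0.061. With no filter on low counts the last was -0.015. With libraries 1 and 2 only, *S100b* was at -0.30 at T1 (adjusted p = 0.011) and -0.0065 at T2, *Gfap* at -0.61 at T2 (adjusted p = 0.013), and *Slc1a3* and *Gja1* from T1 to T2 at -0.0080 and -0.23. With a library left out, the ranges were -0.21 to 0.054 (*Aldoc*, T1), -0.10 to 0.64 (*S100b*, T1), -0.50 to 0.12 (*Aldh1l1*, T1), -0.95 to 0.080 (*Apoe*, T2), -0.23 to 0.78 (*Gfap*, T2), -0.0068 to 0.064 (*Slc1a3*, T2 against T1), -0.044 to 0.13 (*Gja1*, T2 against T1), -0.49 to 0.46 (*Slc1a2*, T3 against T2) and -0.13 to 0.10 (*Fabp7*, T3 against T2).

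Over all genes the FPKM scale moved the median log2 fold change to -0.17 at T2 and -0.27 at T3, and at T2 it called 3011 genes lower and 1576 higher, where the counts gave 2751 and 2704. Calls over all genes ranged from 940 to 3729 lower at T1 (2078 with all libraries), 1535 to 3426 at T2 (2751) and 0 to 1865 at T3 (179). With 2 libraries at T3 and a split T0, changes of the size seen for *Aqp4*, *Apoe*, *Slc1a2* and *Fabp7* could not be told from the spread.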
